A study of Drosophila melanogaster with 2 samples.

Results

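The regions described here are 739 stretches of the Drosophila melanogaster genome with a strong chromatin immunoprecipitation signal that nevertheless missed the authors' threshold for reproducibility between replicates. They were taken from 142665 ranked regions on the major chromosome arms, which are 2L, 2R, 3L, 3R, 4 and X. Of these, 3756 had a pooled signal of 70 or more. Among them 1248 scored under 830, the lowest score found in the authors' conservative list. From those, 509 that overlapped a peak of the conservative or the larger list were set aside (498 overlapped a larger-list peak only), which left 739. The regions were thus chosen by their pooled signal, their score and their absence from the lists, and these values, with the replicate signals behind the score, are given below as a description only. For comparison, 1.89% of all ranked regions on the arms reached a score of 830.

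The chromatin came from whole embryos of 0 to 24 h of the strain labelled CG11085-GFP, transgenic flies that express CG11085 fused to eGFP, and was precipitated with an anti-GFP antibody after sonication to 200 to 800 bp. There is 1 group, with 2 samples labelled as biological replicates. The embryos are whole organisms of mixed age and tissue, so a region cannot be placed in a cell type, and no library from flies without the fusion or from input chromatin was analysed here. Read depth is unknown because the 8 deposited peak files hold no read totals, and the scale of the signal is not stated.

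Chromatin immunoprecipitation recovers DNA fragments that were bound by, or close to, a tagged protein, and sites are called where fragments pile up. CG11085 encodes a homeodomain protein, a class of transcription factor that recognises short AT-rich DNA words and often acts in development. The irreproducible discovery rate (IDR) ranks the regions of both replicates and keeps those that rank high and alike in both. A region strong in a single replicate is thus set aside even when the pooled reads give it a high signal.

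The sequences at the summits of 6 of these regions show the range of base composition that the results below turn on, and 2 conservative peaks are shown beside them. Capitals mark G and C, the sequences are the plus strand of dm6 from RefSeq, and each window reaches 50 bp to each side of the summit. CG11811 (chr3L:10678813-10678913) and spen (chr2L:166799-166899) had the highest pooled signals and were stronger in replicate 1. By the replicate regions matched to them, simj (chr3L:10665778-10665878) and Rel (chr3R:9048244-9048344) were stronger in replicate 2. AstC (chr2L:11081493-11081593) and Kdm2 (chr3R:9053106-9053206) had a GC content of 68.3%, above the 62.4% that bounds the lower 95% of all 739. The peaks shown are those near lncRNA:CR43334 (chr3L:627226-627326) and tRNA:Thr-AGT-1-1 (chr2L:9235637-9235737), with pooled signals just under 100.
CG11811: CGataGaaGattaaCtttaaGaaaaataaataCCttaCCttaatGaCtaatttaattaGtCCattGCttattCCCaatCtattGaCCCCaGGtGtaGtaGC
spen: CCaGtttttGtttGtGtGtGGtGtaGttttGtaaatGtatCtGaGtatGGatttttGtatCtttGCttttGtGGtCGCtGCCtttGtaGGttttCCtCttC
simj: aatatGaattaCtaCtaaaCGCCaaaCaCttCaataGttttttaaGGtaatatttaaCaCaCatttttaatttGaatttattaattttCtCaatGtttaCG
Rel: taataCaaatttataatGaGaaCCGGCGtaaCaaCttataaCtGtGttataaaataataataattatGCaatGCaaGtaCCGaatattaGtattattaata
AstC: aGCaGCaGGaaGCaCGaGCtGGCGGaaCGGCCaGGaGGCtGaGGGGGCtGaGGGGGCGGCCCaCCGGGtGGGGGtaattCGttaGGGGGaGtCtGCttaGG
Kdm2: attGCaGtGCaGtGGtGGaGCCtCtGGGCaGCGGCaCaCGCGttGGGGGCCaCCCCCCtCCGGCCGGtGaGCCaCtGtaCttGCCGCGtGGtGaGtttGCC
lncRNA:CR43334: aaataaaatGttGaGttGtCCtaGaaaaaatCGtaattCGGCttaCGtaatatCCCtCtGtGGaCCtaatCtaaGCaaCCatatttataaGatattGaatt
tRNA:Thr-AGT-1-1: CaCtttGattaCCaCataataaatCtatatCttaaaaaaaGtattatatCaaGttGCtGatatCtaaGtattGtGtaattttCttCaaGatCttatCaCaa

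GC content was 31.7% in the CG11811 window, 37.6% at spen, 21.8% at simj and 22.8% at Rel, against 30.7% and 23.8% in both peak windows. The homeodomain core word TAATTA, read on either strand, occurred in the windows of CG11811 and Rel. TATAAA was found at Rel and at the lncRNA:CR43334 peak.

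The pooled signal of the 739 regions ran from 70.02 to 153, with a median of 74.1 and quartiles of 71.8 and 78.4. In replicate 1 their signal had a median of 45.5 (5.06 to 131) and in replicate 2 a median of 23.6 (2.57 to 69.1). The signal was higher in replicate 1 in 632 of them (85.5%), against 74.0% of all ranked regions on the arms. This share was 90.3% in the 8528 failed regions with a pooled signal of 50 to under 70, 91.9% in the 667 conservative peaks of 70 to under 100 and 91.4% in all 2429 conservative peaks of 70 or more. The ratio of replicate 1 to replicate 2 had a median of 2.01 (quartiles 1.32 and 2.89), against 1.94 in the weaker failed regions and 1.56 in the peaks of 70 to under 100. The ratio spread wider than in those peaks, a difference that the split by score itself favours. It exceeded 3 in 166 of 739 (22.5%), against 21.1% of the weaker failed regions and 1 of the 667 peaks (0.150%). In all ranked regions on the arms that share was 20.01%. A ratio over 5 was found in 50 strong failed regions (6.77%) and in 0 of the 667 peaks. It was found in 6.46% of the weaker failed regions and 7.18% of all ranked regions. Shares over either limit were thus close to those of all ranked regions. The replicate signals stand behind the score that chose the regions, so these ratios are a description. A low score did not require unlike signals. The 131 strong failed regions at a ratio of 1 to 1.5 had median signals of 38.6 and 29.9 in replicates 1 and 2. Their median score was 681. The peaks of 70 to under 100 also had a higher pooled signal, with a median of 86.7, so signal was only partly matched.

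**Figure D1:**
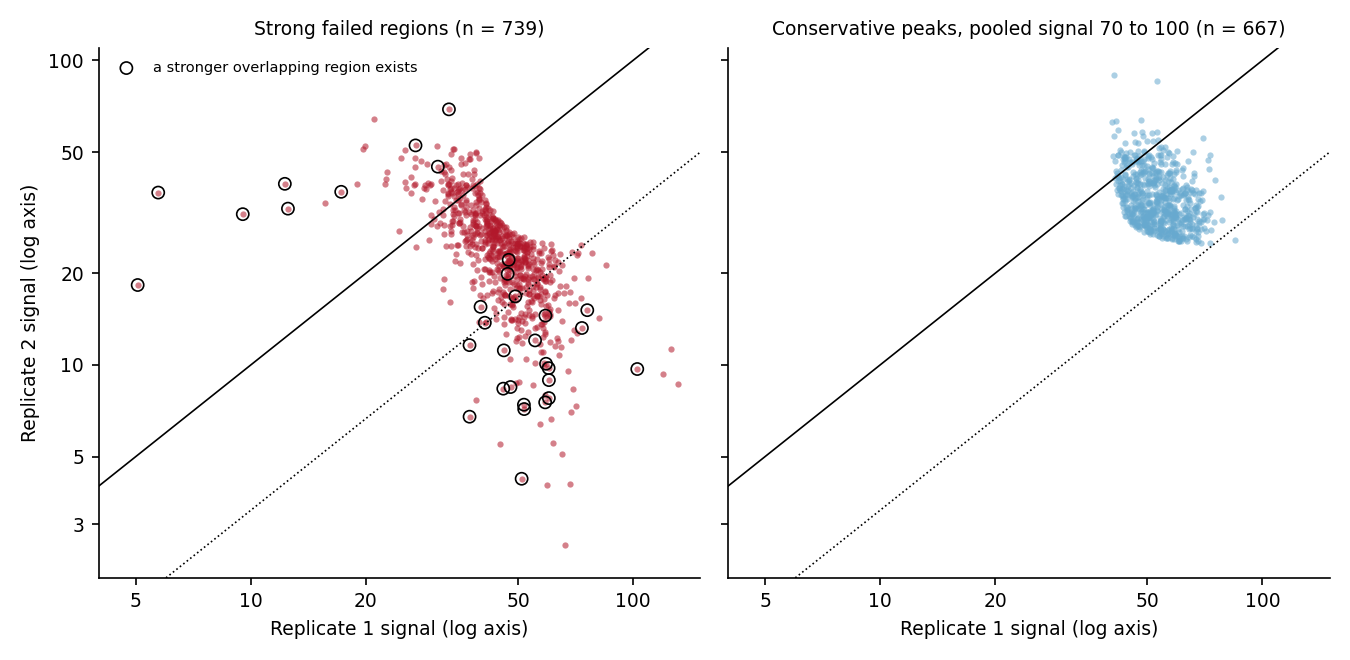
Signal in replicate 2 (vertical, log axis) against replicate 1 (horizontal, log axis) for each strong failed region and, beside it, for the conservative peaks of signal 70 to under 100; each point is 1 region, and rings mark the 32 failed regions with a stronger overlapping replicate region. The failed regions spread along a band with low values in either replicate, while the peaks cluster where replicate 1 is between 40.4 and 84.8.

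The 5 members nearest to the signal limit had pooled signals of 70.02 to 70.04, and scores of 99 to 724. The 5 failed regions just outside had 69.97 to 69.99, and scores of 289 to 802. Of those inside 3 were higher in replicate 2, while all 5 outside were higher in replicate 1. At the score limit the 5 nearest members scored 826 to 829 and the 5 regions just outside scored 830 to 832. The nearest of all, in an intron with lncRNA:CR46410 as the closest start site (2L 6282443 to 6282782), had a pooled signal of 85.5, with 46.4 in replicate 1 and 28.4 in replicate 2. It was followed by the regions of PIP82 (70.6), LamC (72.9), which encodes a nuclear lamin, lncRNA:CR45258 (84.1) and lncRNA:CR45383 (71.1).

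The strongest regions carried very unequal replicate signals. Each is named by the gene of any biotype with the nearest transcription start site (TSS). The strongest lay in an intron, at -12161 bp from the nearest TSS, that of CG11811 (3L 10678693 to 10679032), with a pooled signal of 153, 103 in replicate 1 and 9.70 in replicate 2. Next came an intronic region 7817 bp downstream of a TSS of spen, which encodes a nuclear RNA-binding repressor, at 2L 166679 to 167018 (149 pooled, 119.8 and 9.35 in replicates 1 and 2). At Ccz1, which acts in endosome maturation, the summit lay 19 bp upstream of the TSS (3L 3899005 to 3899344), with 136 pooled, 126 in replicate 1 and 11.3 in replicate 2. By the replicate regions matched to them, replicate 1 was more than 10-fold the higher in each of these 3. For CG11811 this depends on the matching.

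Other strong regions leaned the opposite way or less far. The intronic region of simj, which encodes a subunit of the NuRD chromatin remodeller, at 3L 10665658 to 10665997, had 128 pooled, 33.0 in replicate 1 and 69.1 in replicate 2. Rip11, whose product binds the trafficking GTPase Rab11, had 126 pooled with 30.8 and 44.8 in replicates 1 and 2 at X 18644974 to 18645313. Rel, the NF-κB factor of the Imd immune pathway, had 109 pooled with 26.97 in replicate 1 and 52.6 in replicate 2, 317 bp upstream of its TSS at 3R 9048124 to 9048463. These 3 were higher in replicate 2 by the regions matched to them, which for Rip11 and Rel depends on the matching. At the promoter of Dph1, an enzyme gene of diphthamide synthesis, the pooled signal was 123, with 68.1 in replicate 1 and 15.96 in replicate 2 (3L 11696461 to 11696800). Hmgs, which encodes HMG-CoA synthase, had 121 pooled with 85.1 and 21.3 in replicates 1 and 2 at 2R 16336541 to 16336880. GNBP1, a recognition protein of the Toll pathway, had 103 pooled with 78.0 and 23.3 (3L 18675442 to 18675781), and jeb, the ligand of the receptor Alk, 102 with 62.6 and 22.2 (2R 12102002 to 12102341).

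The regions with the most unequal signals included weak and strong ones. The highest ratio, 25.9, belonged to an intronic region of l(2)k01209 (2R 17421989 to 17422328; 72.7 pooled, 66.5 in replicate 1, 2.57 in replicate 2). It was followed by lncRNA:CR46060 with 16.9, lncRNA:CR30055 with 15.1 (131 in replicate 1 and 8.66 in replicate 2), Ubi-p63E, a polyubiquitin gene, with 14.8 (59.7 and 4.02), and spen with 12.8. Of these 5, lncRNA:CR30055 (126 pooled) and spen are also among the 5 strongest regions. The lowest ratios were 0.156 at lncRNA:CR44365 (5.73 in replicate 1 and 36.8 in replicate 2), 0.276 at Ifrd1, 0.305 at CG15117, 0.312 at CG42523 and 0.327 at Lim1, a LIM-homeodomain gene (21.0 and 64.1). At the first 4 of these the low ratio rests on the region matched in replicate 1.

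In a small part of the regions the ratio depended on which replicate region the authors' comparison matched to the pooled region. For 32 of the 739 strong failed regions (4.33%, 95% Wilson interval 3.08 to 6.05), a deposited replicate region over 1.5 times as strong as the matched one overlapped the pooled region. It was in replicate 1 for 10 of them, in replicate 2 for 23 and in both for 1. The share was 3.64% in the failed regions of 50 to under 70, a difference of 0.695 points (95% Newcombe interval -0.620 to 2.45). In the peaks of 70 to under 100 it was 0.450% (3 of 667), a difference of 3.88 points (2.36 to 5.62). The failed regions of either strength had such a region more often than the peaks did. The matched signals stand behind the score that sorted the sets, so a weak match favours a place among the failed regions. The difference from the peaks is thus a description. The replicate files hold the matched region itself for 731 of 739 in replicate 1 and 665 of 739 in replicate 2.

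The cases were concentrated among the strongest regions, with 7 of the 15 highest pooled signals and 6 of the 14 at 100 or more. At CG11811 the matched replicate 2 region reached 9.70 at a summit 59 bp to the higher-coordinate side of the pooled summit, whereas a stronger overlapping one reached 49.5 at a summit 142 bp to the lower side. With the stronger region the ratio of replicate 1 to replicate 2 was 2.07 in place of 10.6. At brk, a repressor of Dpp target genes (X 7307117 to 7307456), the matched region had 4.23 in replicate 2 and the stronger one 65.4, which gives a ratio of 0.781 in place of 12.1. For cindr, an adaptor protein gene, the replicate 2 signals were 8.92 matched and 66.03 strongest. In replicate 1, simj had 33.0 matched and 61.4 strongest, Rip11 30.8 and 79.6, Rel 26.97 and 64.2, and lncRNA:CR43252 17.2 and 44.3. With these regions the ratio of replicate 1 to replicate 2 was 0.889 at simj, and at Rip11 and Rel it turned to 1.78 and 1.22, higher in replicate 1. Among the lowest ratios it became 0.944 at lncRNA:CR44365, 2.68 at Ifrd1, 1.26 at CG15117 and 0.822 at CG42523, while Lim1 had no such region. With the strongest overlapping regions, 29 of the 32 had replicate signals within a 3-fold range of each other. The 32 were chosen for a stronger overlapping region, so this count and the changed ratios follow in part from that choice.

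The geometry of these cases was alike. Of the 33 stronger regions, 27 were matched to no ranked region and 6 to another one. The matched summit was the nearer to the pooled summit in all 33, at a median of 62 bp, against 172 bp for the stronger one. The stronger summit lay on the lower-coordinate side of the pooled summit in 31 and on the higher side in 2. Matched and stronger summits were 199 to 443 bp apart, with a median of 205 bp and quartiles of 202 and 219 bp. The cause of this spacing was not tested. Over all 739 regions, taking the strongest overlapping replicate regions moved the median ratio only to 1.97, and 151 (20.4%) still exceeded 3. For spen, Ccz1, Dph1 and Hmgs no such stronger region was found among the deposited replicate regions.

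**Figure D2:**
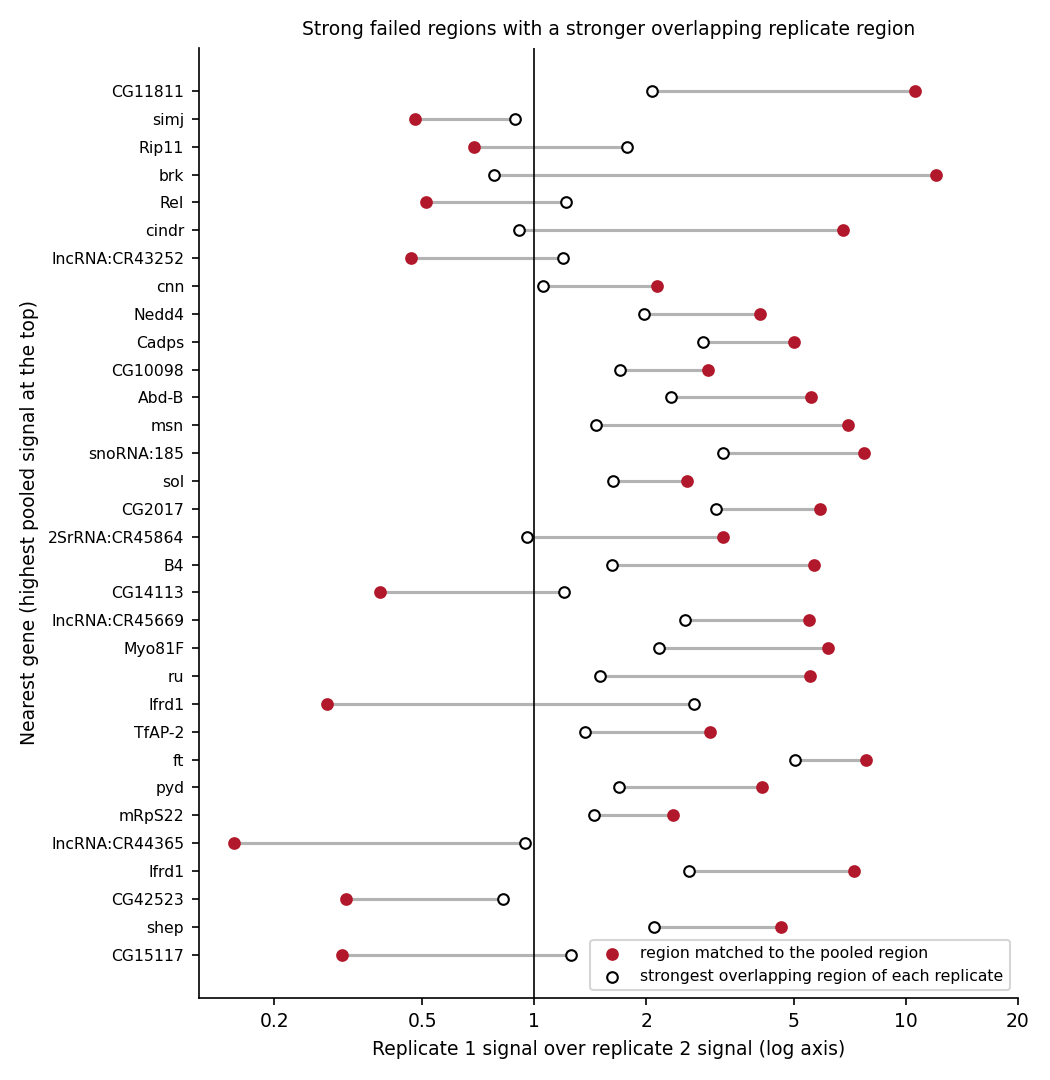
Ratio of replicate 1 to replicate 2 signal (horizontal, log axis) for the 32 strong failed regions with an overlapping replicate region over 1.5 times as strong as the matched one, ordered by pooled signal from the top. Filled points use the matched regions and open points the strongest overlapping ones; the open points lie nearer to 1 in most rows, as at CG11811 (2.07 open, 10.6 filled).

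A second series-level comparison by the authors ranks the same pooled regions between 2 sets that match neither replicate. It listed 736 of the 739, with a median score of 630.5, against 552.5 for the same regions between the replicates. The score was higher there for 440 of them. The failed regions of 50 to under 70 also had a higher median score there, 325 against 258 between the replicates. The larger signal of a pair was a median of 1.48 times the smaller in that comparison and 2.06 times between the replicates, while over conservative peaks these values were 1.20 and 1.51. The rule had set aside 498 strong regions that overlapped a larger-list peak only, which may have limited how many could reach 830 there. In that comparison 18 of the 739 regions reached a score of 830. They included spen (set signals of 66.5 and 67.7), Ccz1 (88.9 and 51.1) and lncRNA:CR30055 (88.0 and 45.0), which all scored 1000 there and 52 to 54 between the replicates. The others included cbt, a zinc-finger transcription factor gene, chic, which encodes profilin, and the Wnt and Notch pathway kinase gene nmo. CG11811 scored 32 there, with set signals of 7.504 and 11.8.

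A list of peaks thresholded within each replicate was also deposited, and few of the strong failed regions appeared in either. In all 30 (4.06%) overlapped a peak of the replicate 1 list, against 1.46% of all ranked regions, and 39 (5.28%) one of the replicate 2 list, against 1.34%. The shares were 0.211% and 0.446% in the failed regions of 50 to under 70, and 20.1% and 17.8% in the peaks of 70 to under 100. Signal enters these lists too, so the order of the sets is a description. Regions in both lists numbered 3, those of CG11811, simj and Rip11, and all 3 were among the 32 with a stronger overlapping replicate region. Of those 32, 11 overlapped a single-replicate list, against 55 of the other 707. The 32 were picked by a stronger region of the same replicates and were concentrated among the highest pooled signals. Both choices favour overlap with these lists, so the counts are a description. The 27 found in the replicate 1 list only had median signals of 61.9 and 15.6 in replicates 1 and 2, and 16 of them lay at promoters. The 36 in the replicate 2 list only had 32.3 and 43.2, and 27.8% of them were on the X chromosome. Neither list held the remaining 673.

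By position in genes, the strong failed regions stood between the weaker failed regions and the conservative peaks. Summits within 500 bp of a TSS, called promoter summits here, made up 27.3% (202 of 739, 95% interval 24.2 to 30.7). The share was 18.6% in the failed regions of 50 to under 70, a difference of 8.77 points (5.57 to 12.2). In the peaks of 70 to under 100 it was 42.3%, a difference of -14.9 points (-19.8 to -9.97), and in all ranked regions on the arms it was 14%. Intervals here cover counting error over regions, and regions of 1 genome are not replicates of a condition. Introns and non-coding exons held 36.5%, against 37.1% and 36.0%, and both intervals of the difference included 0. Intergenic sequence held 24.4%, close to the 24.99% of the weaker failed regions and 9.66 points above the 14.7% of the peaks (5.53 to 13.7). For 5' UTRs and coding exons the share was 10.8%, against 17.9% in the weaker failed regions (-7.07 points, -9.27 to -4.50) and 5.40% in the peaks (5.43 points, 2.58 to 8.28). Only 7 summits lay in 3' UTRs. Among all ranked regions on the arms, 17.7% of summits fell in 5' UTRs or coding exons, more than the 10.8% here. Of the same ranked regions 25.7% were intergenic, near the 24.4% here. The intron class, with its non-coding exons, made up 40.1% of them, against 36.5% here.

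**Figure D3:**
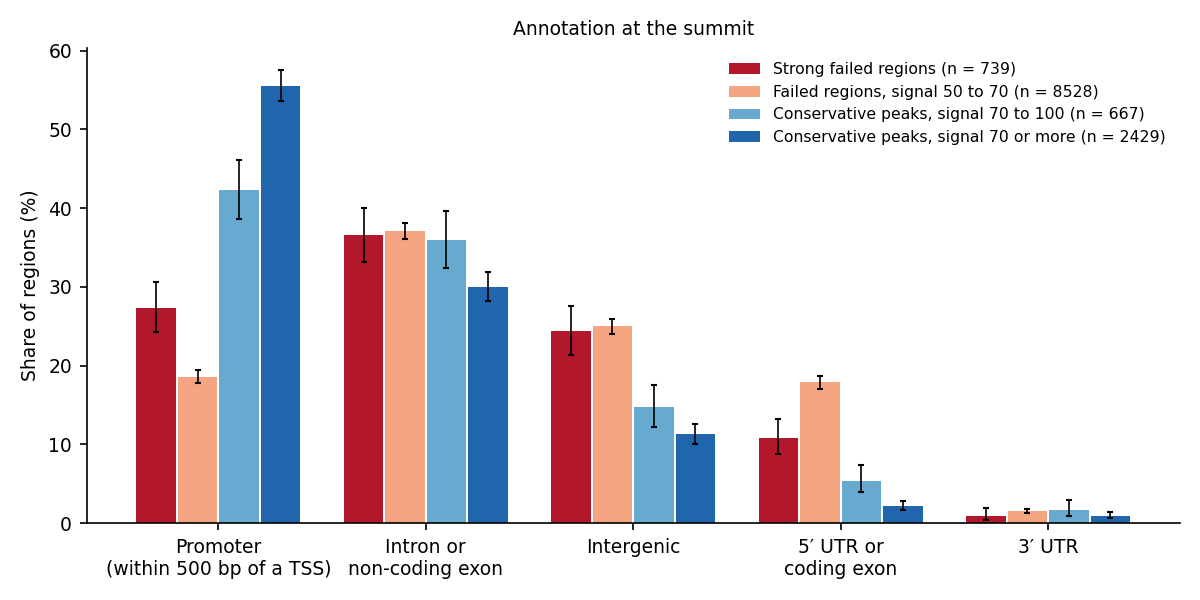
Share of regions (vertical, %) by the annotation at the summit for the strong failed regions, the failed regions of signal 50 to under 70, the conservative peaks of 70 to under 100 and all conservative peaks of 70 or more; error bars are 95% Wilson intervals. At promoters the strong failed regions (27.3%) stand between the weaker failed regions (18.6%) and the peaks of 70 to under 100 (42.3%).

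The strongest region of each class was that of Ccz1 at promoters, CG11811 in introns, lncRNA:CR44722 in intergenic sequence (94.4 pooled, 61.1 in replicate 1 and 24.9 in replicate 2), cbt in coding sequence (92.4, 69.4 and 23.4) and CG13631 in 3' UTRs (83.7, 65.1 and 13.97). Among the 202 promoter summits the nearest start site was protein-coding for 179, a non-coding RNA for 20, a snoRNA for 2 and a tRNA for 1. Counting from protein-coding start sites up to 500 bp away, 122 of 183 summits (66.7%) lay upstream. The share was 52.4% in the failed regions of 50 to under 70 and 83.3% in the peaks of 70 to under 100, a difference of -16.7 points (-24.8 to -8.58) from the peaks. Median positions were -53 bp, -11 bp and -86.5 bp from the TSS in that order of sets. In the first 50 bp downstream lay 18 of the 183 (9.84%), against 18 of the 270 peak summits (6.67%).

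**Figure D4:**
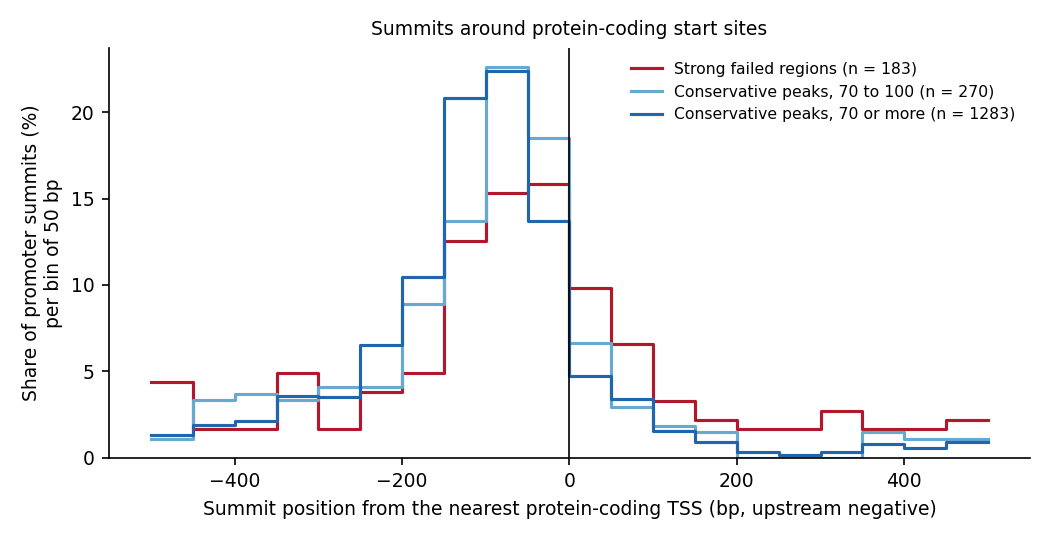
Share of promoter summits (vertical, % per 50 bp) by position from the nearest protein-coding TSS (horizontal, bp, upstream negative) for the strong failed regions and the conservative peaks. The 183 strong failed summits have a median position of -53 bp and a longer tail downstream than the peaks of 70 to under 100, whose median is -86.5 bp.

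Base composition separated the sets as well. Within 50 bp of the summit the median GC content was 47.5% in the strong failed regions, against 49.5% in the failed regions of 50 to under 70, 37.6% in the peaks of 70 to under 100 and 33.7% in all peaks of 70 or more. Windows 250 bp to each side were alike, at 43.6%, 43.6%, 42.6% and 43.1%. The peaks thus had AT-rich summits in flanks like those of the failed regions, whose own summits were slightly richer in G and C than their flanks. A GC content under 40% was found in 238 of the 739 (32.2%), against 58.0% of the peaks of 70 to under 100 (-25.8 points, -30.7 to -20.7) and 18.9% of the weaker failed regions (13.4 points). In all ranked regions on the arms that share was 26.3%, below that of the strong failed regions. The order of the failed regions and the peaks was the same within promoters, introns and intergenic sequence. At promoters 45.5% were under 40% GC, against 57.4% in the peaks (-11.9 points, -20.7 to -2.88), and in introns 34.4%, against 67.1% (-32.6 points, -40.5 to -24.1). In coding sequence the shares were 3.75% (3 of 80) and 5.56% (2 of 36), with an interval that includes 0.

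The promoter share was higher where GC content was low, in the strong and in the weaker failed regions. Under 40% GC, 92 of 238 (38.7%) lay at promoters, against 23.4% of the weaker failed regions and 41.9% of the peaks of 70 to under 100, from which the difference was -3.2 points with an interval, -11.0 to 4.74, that includes 0. At 40% GC or more the promoter share was 22.0% (110 of 501), against 17.4% of the weaker failed regions and 42.9% of the peaks, with a difference of -20.9 points (-27.7 to -14.1) from the peaks.

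Base composition also differed with the replicate that was higher. Of the 107 regions higher in replicate 2, 72 (67.3%) had under 40% GC, against 166 of the 632 higher in replicate 1 (26.3%), a difference of 41.0 points (31.0 to 49.8). Median GC content was 36.6% in the regions higher in replicate 2 and 48.5% in those higher in replicate 1, with flanks of 44.1% and 43.6%. Coding sequence held 1 of the 107 (0.935%) and 79 of the 632 (12.5%), a difference of -11.6 points (-14.5 to -6.78). Promoter shares were 28.04% and 27.2%, a difference of 0.822 points (-7.62 to 10.6). Across the 739 regions the GC content correlated with the ratio of replicate 1 to replicate 2 with a Spearman rho of 0.316, against 0.134 in the weaker failed regions and 0.132 in the peaks of 70 to under 100. These are descriptions over regions that share both libraries, without a test. Median GC content was 36.6% in the 94 regions with a ratio of 0.5 to 1, 47.5% in the 130 at 1.5 to 2 and 52.5% in the 205 at 2 to 3, and 46.5% in the 50 above 5. The cause of this order was not tested.

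**Figure D5:**
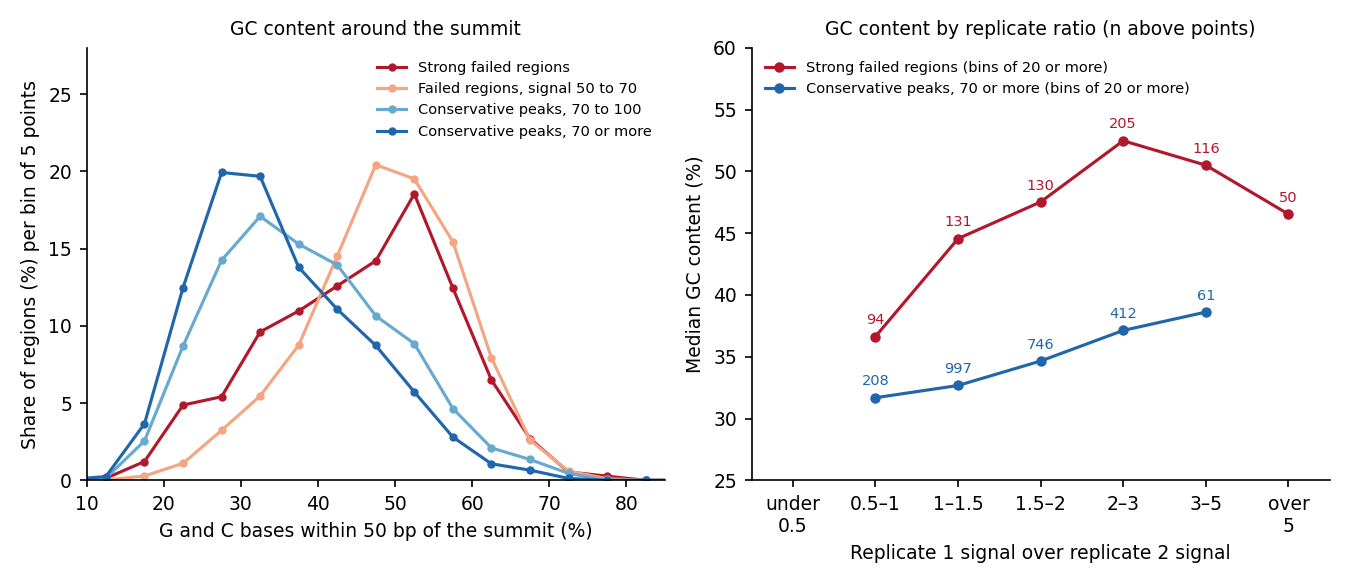
Left, share of regions (vertical, %) by GC content within 50 bp of the summit (horizontal, bins of 5 points); right, median GC content (vertical, %) by the ratio of replicate 1 to replicate 2 signal (horizontal, bins of 20 or more regions). The strong failed regions peak at 50 to 55% GC with 18.5%, and their median GC content is 36.6% at ratios of 0.5 to 1 and 52.5% at 2 to 3.

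The arms were not represented evenly. The X chromosome held 80 of the 739 (10.8%), close to the 11.7% of the failed regions of 50 to under 70, against 17.5% of the peaks of 70 to under 100 and 18.2% of all ranked regions. Arms 2L, 2R, 3L and 3R held 163, 161, 164 and 169, and chromosome 4 held 2, both nearest to Cadps. The X held 21.5% of the regions higher in replicate 2 (23 of 107) and 9.02% of those higher in replicate 1 (57 of 632), a difference of 12.5 points (5.31 to 21.4). Median GC content was 39.1% in the 80 regions on the X and between 46.5% and 49.5% on the 4 large autosomal arms.

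Few strong failed regions lay beside one another. Only 2 had another of them within 500 bp and 111 within 10 kb. A listed peak had its summit within 1 kb of 41 (5.55%), against 3.83% of the failed regions of 50 to under 70 and 18.6% of the peaks of 70 to under 100 (-13.0 points, -16.5 to -9.69). The strongest of these 41 were Rip11, prage, the growth regulator gene Myc (87.1 pooled), CG10098 (86.0) and nan, a TRPV channel gene (85.7). The rule leaves out regions that overlap a listed peak, so the nearest distances are closed to them by choice. Within 10 kb a listed peak was found for 318 (43.0%), against 37.1% of the weaker failed regions (5.96 points, 2.29 to 9.70) and 57.4% of the peaks of 70 to under 100. No listed summit lay within 10 kb of the regions of spen, Dph1, Hmgs, Rel and GNBP1. The median distance was 13067 bp, and 29 regions were over 100 kb from any listed summit.

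Repeats were a small part. Soft-masked sequence held 121 summits (16.4%), against 13.1% of the weaker failed regions and 20.8% of the peaks of 70 to under 100. Annotated transposable elements were overlapped by 14 (1.89%), against 1.25% and 1.95%. By nearest TSS, 648 genes had a single strong failed region, 33 had 2 and 7 had 3, among them COX7AL2, prage, the RNA-binding protein gene shep and the phosphodiesterase gene Pde1c. The rRNA gene 2SrRNA:CR45864 on the X had the nearest TSS for 4. Of these, the regions that start at X 23321659 and 23327696 were intergenic, 30129 and 36166 bp from that TSS. The 4 regions spanned X 23321659 to 23407202, with pooled signals of 70.1 to 83.4.

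Of the 13945 protein-coding genes on the arms, 333 (2.39%) had the summit of a strong failed region within 1 kb of a TSS, against 2086 with the summit of a conservative peak of 70 or more. Both kinds were found at 45 genes, which is 13.5% of the 333 and 2.16% of the 2086. Read against these shares, the list of cytoplasmic ribosomal protein genes was not a feature of the strong failed regions. It had 3 of 93 genes with such a region, while 52 of the 93 had a peak. Those 3 were RpS26, RpS12 (76.3) and RpLP0-like (72.2). RpS26 had a pooled signal of 89.6 (31.5 in replicate 1 and 40.2 in replicate 2) 14 bp upstream of its TSS at 2L 18443121 to 18443460. The region of RpS12 is nearer to the TSS of Adk2, and that of RpLP0-like to the TSS of 14-3-3zeta.

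Single genes of developmental pathways carried a region. In the EGFR and FGF receptor list there were 3 of 24. The FGF receptor gene htl, which acts in mesoderm migration, had 91.1 pooled with 32.0 in replicate 1 and 43.2 in replicate 2 (3R 18049503 to 18049842). Ras85D, which encodes the Ras GTPase, had 74.4, in a region that is nearer to the TSS of Rlb1, and pnt, the ETS factor of the pathway, had 72.9. In the Notch list there were 2 of 20. The ubiquitin ligase gene neur had 79.7 pooled with 35.8 and 28.5 in replicates 1 and 2. The metalloprotease gene kuz had 72.6 with 68.8 and 7.03, in a region that is nearer to the TSS of B4. The Wnt and segment polarity list had 2 of 23, the destruction complex genes Apc (78.0; 51.0 and 14.9) and sgg (73.3; 58.5 and 13.9).

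Nuclear receptors and the cell cycle were represented by 3 genes each. Hnf4, a receptor of lipid metabolism, had 86.5 pooled, with 36.4 in replicate 1 and 38.8 in replicate 2 (2L 8691410 to 8691749). It was followed by Hr51 (76.8), in a region nearer to the TSS of lncRNA:CR44371, and Hr83 (71.4), out of 24 genes. The Cdk inhibitor gene dap had 78.6, with 34.5 and 34.7, only 2 bp upstream of its TSS (2R 9712149 to 9712488), followed by the cyclin gene CycB (77.6) and the Aurora kinase gene aurB (70.4), out of 32 genes. Hnf4 and dap were among the regions with nearly equal replicate signals. The glial list had pnt and the septate junction gene Gli (72.5) of 13 genes, and the mitochondrial ribosomal list mRpL53 (72.4) and mRpS22 (71.4) of 73. Hsp22 and Hsp67Bc, 2 of 21 heat shock genes, shared 1 region (70.9), which is nearer to the TSS of Hsp22.

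Other lists had 1 gene or none. The chromatin list had kis, a chromodomain ATPase gene (70.6, 1 of 31), and the dorsoventral list brk (1 of 20). The translation list had eIF4A with 2 regions (80.4 and 75.2, 1 of 34), of which the first is nearer to the TSS of chic. The histones (His2B:CG33908, 71.8, 1 of 115) and the cuticle proteins (Cpr73D, 75.3, 1 of 122) had 1 gene each. The odorant and gustatory receptors had Gr32a (1 of 179). Its pooled signal was 73.0, with 19.9 and 52.3 in replicates 1 and 2, in a region nearer to the TSS of Idua. No region lay within 1 kb of a TSS in 13 lists. These were the Hox genes (8), further homeobox genes of the ANTP class and NK type (36), and the gap (12), pair-rule (9), proneural and neuroblast (24), neuronal (30), mesoderm and muscle (33) genes. They also included the lists of trachea, epidermis and gut (22), haemocytes (14), the germline (13), insulators (17), the proteasome (48), and the chorion and vitelline membrane (19). At the 2.39% of all genes, most of these lists would hold no more than 1 gene, so an empty list is no finding. The Hox gene Abd-B had an intronic region with 83.5 pooled, further than 1 kb from a TSS.

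CG11085 itself (X 12616316 to 12621216) had no strong failed region in or within 1 kb of the gene, where 6 ranked regions lie. The nearest summit was 116847 bp away at X 12737893 to 12738232, by the corepressor gene Smr, with 77.5 pooled, 29.6 in replicate 1 and 29.1 in replicate 2.

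Both strands of each summit window were searched for short words, and a match is only an occurrence of the letters. The word TATAAA was found in 75 strong failed regions (10.1%), against 6.82% of the failed regions of 50 to under 70 and 18.3% of the peaks of 70 to under 100 (-8.14 points, -11.8 to -4.50). It occurred in 9.68% of the regions' own flanks and in 8.14% of all ranked regions. CGATA, which is also part of TATCGATA, was found in 11.5%, against 10.5% and 16.6%, and in 10.4% of all ranked regions. The homeodomain core TAATTA occurred in 7.44%, against 4.36% and 6.90%, in 6.09% of the flanks and in 5.28% of all ranked regions. TATAAA and CGATA were thus rarer in the strong failed regions than in the peaks, with a difference of -5.14 points (-8.82 to -1.51) for CGATA.

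The word GCTGC ran the other way against both sets. It was found in 28.1%, against 33.4% of the weaker failed regions and 22.0% of the peaks (6.11 points, 1.56 to 10.6), and in 29.5% of all ranked regions. CACACACA occurred in 3.52%, against 2.86% and 1.35%, and in 2.76% of all ranked regions, and AAAAAAAA in 3.79%, against 4.91% and 6.45%, and in 4.93%. GAGAG, which is also part of GAGAGAGA, was found in 13.5%, against 12.7% and 11.8% (1.69 points, -1.82 to 5.16), and in 12.3% of all ranked regions. The longer NK-type word TTAAGTGG was found in 0 of the 739, which allows a share of up to 0.517% by the Wilson interval, against 0.340% and 0.750%, and in 0.434% of all ranked regions. Base composition differs between the sets, and its part in these shares was not tested.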

How the data were processed

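Chromatin immunoprecipitation of a CG11085-eGFP fusion was measured in 2 samples labelled as biological replicates. The authors deposited peak lists and ranked regions in dm6 coordinates, per the labels. Neither the aligner nor the peak caller is given in the sources used here. Each file gives a signal that is never negative, on a scale the authors do not state. The deposited score is a whole number up to 1000, and the −log10 of the global IDR is also the authors' value. A score of 830 stands for a global IDR of 0.01. The deposited ranked file that compares the replicates was identified by those of its input regions that coincide exactly with replicate regions. On the arms, 82093 of 125491 regions of the first set coincided with replicate 1 and 0 with replicate 2. Of the second set, 60642 of 120400 coincided with replicate 2 and 0 with replicate 1. The signal of the matched region in each set was read from that ranked file.

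Summits were annotated with Ensembl release 115 and given 1 class each: promoter where a TSS lay within 500 bp, otherwise coding exon or 5' UTR, then 3' UTR, then intron (with non-coding exons), then intergenic. Sequence and soft-masking came from the RefSeq copy of dm6. Shares have 95% Wilson intervals and differences 95% Newcombe intervals, which cover counting error only. No test was run, since there is 1 group and signal chose the regions. The members, the 28 gene lists and the 27 words were chosen with earlier results of these data known. Of 480 listed symbols, 20 had no match among protein-coding genes on the arms. Named regions are those highest in signal, with the most extreme ratios, nearest to the limits, strongest per class or list, strongest with or without a listed peak nearby, and genes with most regions. Regions with a stronger overlapping replicate region, those that scored 830 or more in the second comparison, and Abd-B, AstC and Kdm2 were named after their values were seen. Alternatives were other signal minimums, windows, distances, subsets and each replicate alone. The functions were tested on simulated data. Python 3.11.15, numpy 2.4.6, pandas 2.3.3 and scipy 1.17.1 were used.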

Additional observations from a re-analysis of the deposited data

How the results depend on the processing

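Of 139 recomputed values that answer a comparison, 79 stayed within their limits, 53 moved and 7 changed sides, the cause of which was not tested. With a signal minimum of 60, 80 or 100 there were 2998, 142 or 14 regions. The promoter share was then 23.3%, 31.7% or 50%, the coding share 15.3%, 5.63% or 0%, the upstream share 58.9%, 79.1% or 100%, the share higher in replicate 1 89.3%, 81.0% or 78.6%, and the share in a single-replicate list 3.40%, 21.8% or 57.1%. At 80 or 100 the median ratio was 2.37 or 4.13, the median GC content 43.6% or 36.6% and the share near a listed peak 8.45% or 14.3%, and at 100 introns held 50%. The coding share of 0 rests on 14 regions and turned its difference from the peaks negative, and the upstream share of 100% turned its difference positive.

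Choosing the regions by 1 replicate's own signal (35 or more) and leaving out the other gave 405 to 9829 regions. The ranges were 20.2% to 26.2% for promoters, 35.9% to 44.0% for introns, 3.21% to 19.7% for coding sequence, 12.5% to 18.3% for masked summits, 4.22% to 9.14% near a listed peak, 3.95% to 99.6% higher in replicate 1, 0.743% to 24.2% in a single-replicate list, 49.0% to 73.5% upstream, 0.619 to 2.95 for the median ratio and 39.6% to 49.5% for GC content. The ratio of 0.619, from replicate 2 alone, and the 99.6% higher in replicate 1, from replicate 1 alone, reversed their side of the peaks by that choice.

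Promoter windows of 250 and 1000 bp gave 20.6% and 38.2%, and an upstream share of 59.0% at 1000 bp. With distances of 500 bp and 5 kb, 0.812% and 26.7% lay near a listed peak, and 0% where such regions were left out. With at least 50% of the window masked, 5.82% counted as masked. With genes extended by 5 kb, 1328 genes held a region. After seeing the data, the 632 regions higher in replicate 1 and the 107 higher in replicate 2 were taken alone. In a single-replicate list were 5.06% and 31.8% of them. Those higher in replicate 2 had 46.7% in introns, 0.935% in coding sequence, 23.4% masked, 89.7% upstream, 9.35% near a listed peak and a GC content of 36.6%; the coding, masked and upstream shares reversed relative to the peaks. A window of 150 bp, also added, gave 45.2% GC. Among words and gene lists, 283 of 407 values stayed and 124 moved, and TATAAA kept the sign of its difference from the peaks of 70 or more in 13 of 13 settings, as did 8 further words.

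No paired analysis was possible because the series holds 1 group. Signals are given without read depth, so the precision of a replicate's signal cannot be stated, and 2 replicates allow no estimate of how often a region would fail again.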

Other observations

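Off the chromosome arms there were 4584 ranked regions, and 20 of them met the same limits of signal, score and absence from the lists. They lay on 20 scaffolds or chromosomes, 1 of them on Y. The highest pooled signal was 249.9, above the 153 of the strongest failed region on the arms. Replicate 1 was higher in 10 of the 20, and the median ratio of replicate 1 to replicate 2 was 0.973, against 2.01 on the arms.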
